A study of Mus musculus with 16 samples.

Results

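Of the 47065 H3K9me2 regions of mouse small intestinal crypts, 20288 (43.1%) shared no base with any of the 212313 peaks called for H3K9me3 in the same tissue, and these H3K9me3-free regions are described here. They were found by overlap of coordinates alone (0 bp shared), without use of the read values. The other 26777 regions met at least 1 H3K9me3 peak. Free of H3K9me3 peaks means that none was called there. The H3K9me3 values were deposited at H3K9me3 peaks, so the H3K9me3 signal below the calling threshold inside these regions was not analysed here.

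The study asked how Smarcad1, an ATP-dependent chromatin remodelling factor, acts on repressive chromatin in the gut. Chromatin immunoprecipitation with sequencing (ChIP-seq) was made from whole crypt isolates of 3 wild type (WT) and 3 knockout (KO) samples per mark, and each genotype also had 1 input library per mark, made from chromatin that met no antibody. That gave 16 libraries, of which the 8 for H3K9me2 carry the values below. All mice were C57BL/6 males kept under specific opportunistic pathogen free conditions, and their ages were not given in the sources used here. KO mice carried loxP sites around exons that code for the ATP-binding part of Smarcad1, in a line derived from a single targeted ES cell clone, and a Cre recombinase driven by the Villin promoter (Vil-Cre), which is active in the intestinal epithelium and leaves the gene intact in other cells of the isolate. The sources do not say whether WT mice carried the loxP or Cre alleles, nor whether a library is a single animal. No H3K9me2 region overlapped Smarcad1, so these values do not show whether it was deleted.

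H3K9me2 and H3K9me3 are methylation states of lysine 9 of histone H3. H3K9me2 is laid down mainly by the enzymes G9a and GLP and spreads over broad, mostly silent domains, many of them at the nuclear periphery. H3K9me3 is laid down by SUV39H and SETDB1 enzymes, is bound by heterochromatin protein HP1, and is known for its place on repeats, at pericentromeres and over silenced gene clusters such as those of zinc finger and olfactory receptor genes.

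The central 300 bases of 5 H3K9me3-free regions are given as examples, picked at extremes and not typical of the set. The pair from the regions with most MACS peaks and a region among those with the highest ChIP over input are followed by the region with the smallest p lower in KO and the one with the smallest p higher in KO. Sequences are from GRCm38 (RefSeq), in lower case, with each CpG (the letters CG, the same on both strands) in capitals.
Cbx3-ps6, chr14:73924801-73925100, plus strand: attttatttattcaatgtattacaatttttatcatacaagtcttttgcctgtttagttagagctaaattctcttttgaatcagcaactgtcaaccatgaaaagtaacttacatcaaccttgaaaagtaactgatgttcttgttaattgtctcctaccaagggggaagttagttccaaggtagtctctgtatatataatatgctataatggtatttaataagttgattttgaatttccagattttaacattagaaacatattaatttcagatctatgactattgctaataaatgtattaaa
Gria1, chr11:57234151-57234450, plus strand: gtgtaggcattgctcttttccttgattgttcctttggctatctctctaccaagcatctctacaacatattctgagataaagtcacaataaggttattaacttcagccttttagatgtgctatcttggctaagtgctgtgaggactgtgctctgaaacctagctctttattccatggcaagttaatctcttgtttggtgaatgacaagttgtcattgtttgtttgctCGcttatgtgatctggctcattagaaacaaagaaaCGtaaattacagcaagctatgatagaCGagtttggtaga
Zcchc16, chrX:144839551-144839850, plus strand: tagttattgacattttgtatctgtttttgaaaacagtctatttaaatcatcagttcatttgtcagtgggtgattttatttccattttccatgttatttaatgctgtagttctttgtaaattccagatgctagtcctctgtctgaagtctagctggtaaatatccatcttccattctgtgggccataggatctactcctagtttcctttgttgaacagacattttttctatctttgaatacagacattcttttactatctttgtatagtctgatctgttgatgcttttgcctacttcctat
St6gal2, chr17:55460401-55460700, plus strand: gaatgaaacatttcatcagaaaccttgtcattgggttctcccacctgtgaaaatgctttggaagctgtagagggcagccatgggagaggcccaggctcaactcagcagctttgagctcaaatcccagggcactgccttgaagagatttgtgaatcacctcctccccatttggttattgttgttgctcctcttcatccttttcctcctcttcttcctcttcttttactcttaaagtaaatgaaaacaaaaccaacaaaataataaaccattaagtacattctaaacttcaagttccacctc
St8sia6, chr2:13725301-13725600, plus strand: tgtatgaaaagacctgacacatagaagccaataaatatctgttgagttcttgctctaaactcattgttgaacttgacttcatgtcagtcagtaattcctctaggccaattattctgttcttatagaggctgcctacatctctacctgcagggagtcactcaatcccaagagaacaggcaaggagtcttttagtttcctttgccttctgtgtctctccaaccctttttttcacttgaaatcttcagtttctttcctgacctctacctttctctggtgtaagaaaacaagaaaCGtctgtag

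All 5 stretches lay within a gene of GENCODE M21 and none touched an exon. The first lay in an intron of Gm49164, in the region that also holds the pseudogene Cbx3-ps6, and the others in introns of Gria1, Rtl4 (the current symbol of Zcchc16), St6gal2 and St8sia6. They were poor in CpG: Gria1 held 3, St8sia6 held 1 and the other 3 held none. Their GC content was 27.3% to 42.3%, against a median of 41.7% over the whole H3K9me3-free regions. Over the central 300 bases of every region, 77.5% of the H3K9me3-free regions held at least 1 CpG, against 72.4% of the others and 74.6% of all, and the median was 1 CpG in each set. The largest number in a H3K9me3-free window was 22.

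Reads in H3K9me2 regions numbered 18986927 to 39080740 per ChIP library and 11716581 and 12365259 in the WT and KO inputs. The H3K9me3-free regions held 15.6% to 16.2% of these reads in the 6 ChIP libraries and 15.7% in both inputs. A median H3K9me3-free region had 73 to 159 ChIP reads per library, and a median region with an H3K9me3 peak 317 to 663, so values of single H3K9me3-free regions are the less precise ones. KO3 stood apart, and WT1 less so. Over the H3K9me3-free regions the chi-square per degree of freedom between 2 libraries was 4.45 for WT1 with KO3. It was 2.36 to 3.49 for KO3 with the others. For WT1 it was 2.59 and 2.48 with WT2 and WT3, and 1.89 and 1.86 with KO1 and KO2. The closest pair was KO1 with KO2 at 1.31, where counting error alone gives about 1. The measure grows with depth, and KO3 had the most reads.

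H3K9me3-free regions were small. Their median width was 2700 bp (quartiles 1200 and 7050 bp), against 13950 bp for regions with an H3K9me3 peak, and they covered 121 of the 773 Mb in H3K9me2 regions. A region groups neighbouring H3K9me2 peaks, and 12330 of the H3K9me3-free regions (60.8%) consisted of 1 peak, against 21.1% of the others. The share free of H3K9me3 fell along the size classes of autosomal regions: 66.1% of regions with 1 peak, 45.4% with 2, 27.6% with 3 to 5, 12.1% with 6 to 10 and 3.42% with 11 or more peaks. A wide region has more room to meet a peak, so this order partly follows from the way the regions were chosen. Within each of these classes H3K9me3-free regions were still the narrower ones, with a median of 1650 against 2100 bp among autosomal regions of 1 peak and 60375 against 73200 bp among those of 11 or more.

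**Figure D1:**
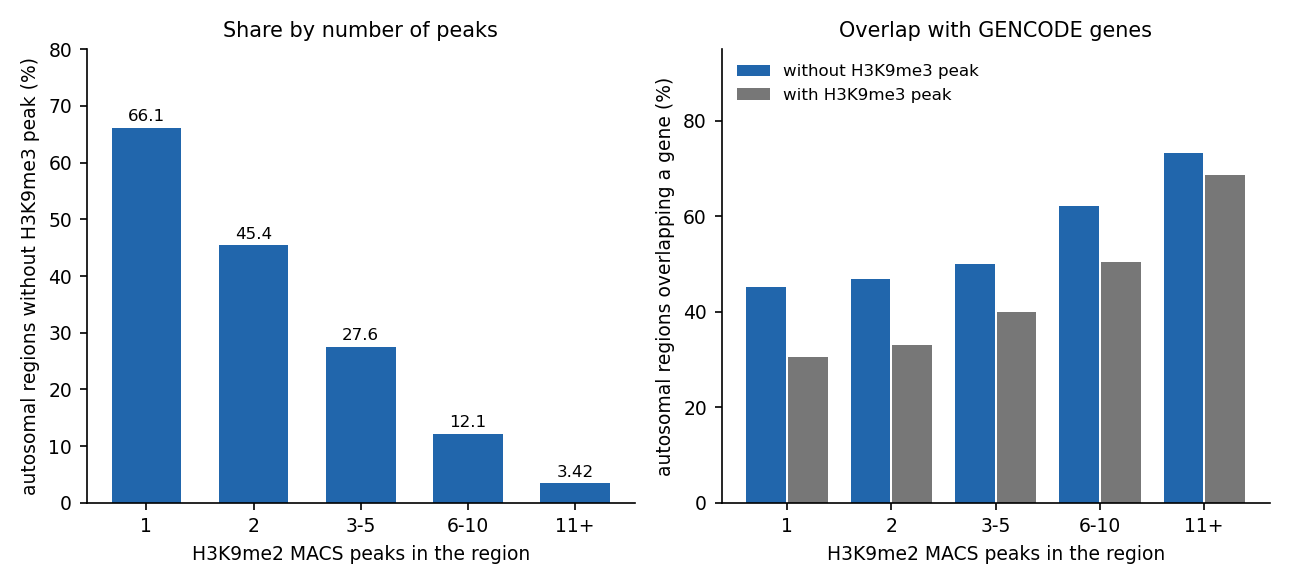
Left, share of autosomal H3K9me2 regions (%) without H3K9me3 peak, by the number of H3K9me2 MACS peaks in the region (bars start at 0, values above them). Right, share of autosomal regions (%) overlapping a GENCODE gene in the same classes, blue for regions without and grey for regions with an H3K9me3 peak. The share without H3K9me3 falls from 66.1% to 3.42% with size, and gene overlap is higher without H3K9me3 peak in all 5 classes.

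A few H3K9me3-free regions were broad, and 117 had 11 or more peaks. The widest spanned 235800 bp with 41 peaks on chromosome 14 (chr14:73807051-74042850) and held the pseudogene Cbx3-ps6 and 5 further genes with Gm symbols. The next had 32 peaks over 139200 bp inside Gria1, an AMPA-type glutamate receptor subunit (chr11:57164701-57303900). Regions of 26, 22, 19 and 18 peaks lay in Armc4, a gene of motile cilia, Alk, a receptor tyrosine kinase of the nervous system, Glra1, a glycine receptor subunit, and Dlg2, a postsynaptic scaffold. Alk and Gria1 were also rich in G and C for this set, with 45.0% and 44.9%. The distance from these 8 largest regions to the nearest H3K9me3 peak was 6450 to 37200 bp.

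H3K9me3 was rarely far away. The median distance from a H3K9me3-free region to the nearest H3K9me3 peak was 21750 bp (quartiles 8100 and 51000 bp). In 3376 regions (16.6%) a peak lay within 5 kb, and in 2071 (10.2%) none lay within 100 kb. The neighbouring H3K9me2 region was 9600 bp away at the median, against 6900 bp for regions with an H3K9me3 peak. At the limit of the rule, the 797 regions that missed a peak by 500 bp or less had a median width of 2250 bp and a median log2 ChIP over input of 0.040, and the 1395 regions that overlapped peaks by 500 bp or less had 1800 bp and 0.10.

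The X chromosome was the exception among the chromosomes. On it 1709 of 1756 regions (97.3%) were H3K9me3-free, while the autosomes ranged from 35.6% on chromosome 14 to 63.1% on chromosome 19. The X also had fewer H3K9me3 peaks per length than any autosome, 14.8 per Mb, against 49.6 on chromosome 19 and 104 on chromosome 15. Chromosome 11, with 53.0 H3K9me3 peaks per Mb, had 50.1% H3K9me3-free regions. The X regions were short, with a median width of 450 bp with or without an H3K9me3 peak, and 1400 of the 1756 had 1 peak. The H3K9me3-free ones covered 1.95 Mb. Males have a single X, and the inputs held 0.6003 and 0.591 CPM (reads scaled to a total of 1e+06 in H3K9me2 regions) per kb of X region, against 1.30 per kb of autosomal region in both. The median H3K9me3-free X region had 6 reads in each input, so ratios there rest on few reads. The Y chromosome had 1 H3K9me2 region, which met an H3K9me3 peak.

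**Figure D2:**
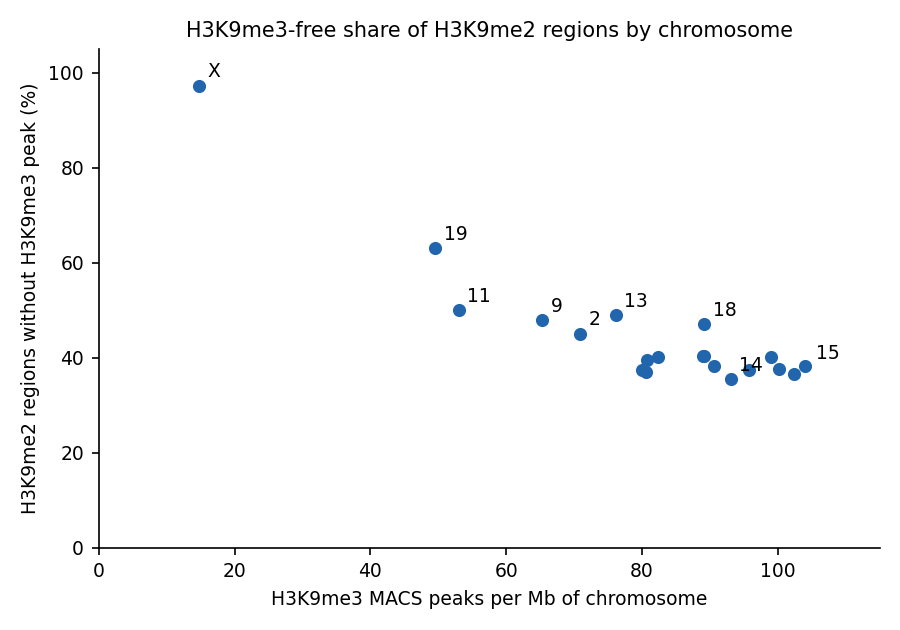
Each point is a chromosome (autosomes and X; chosen points carry the chromosome's name); the x axis gives H3K9me3 MACS peaks per Mb and the y axis the share of H3K9me2 regions (%) without H3K9me3 peak. X lies apart at 14.8 peaks per Mb and 97.3%, and chromosome 19 has the highest share among autosomes, 63.1%.

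H3K9me3-free regions were more often genic than the other regions. A gene was overlapped by 45.6% of them against 42.4%, and a protein-coding gene by 32.6% against 25.2%, although they were much narrower. At an equal number of peaks, though H3K9me3-free regions were still the narrower ones, 45.3% of autosomal H3K9me3-free regions of 1 peak overlapped a gene against 30.5% of the others, and 73.3% against 68.7% of those with 11 or more peaks. They sat inside genes more than at their starts. The start site of a protein-coding gene fell in 228 of them (1.12%), against 1112 of the other regions (4.15%), and among autosomal regions of 1 peak the shares were 0.337% and 0.356%. Exons made up 2.49% of their bases and 1.92% of the bases of the others.

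Large genes more often held a H3K9me3-free region. Among 997 protein-coding genes of 200 kb or more, 652 (65.4%) overlapped at least 1 of them, against 21.9% of genes of 50 to 200 kb, 5.97% of genes of 10 to 50 kb and 3.84% of shorter ones. The share with an H3K9me2 region of either kind was also highest in the longest class, 77.7%, against 28.1%, 11.7% and 18.2% in the others. Of the overlaps with H3K9me2 regions, 46.3% were H3K9me3-free in the longest class and 62.3% in genes of 50 to 200 kb. Of the 4382 protein-coding genes with any H3K9me2 region, 2373 (54.2%) had a H3K9me3-free region and 1565 (35.7%) had no other kind. Macrod2, an ADP-ribose hydrolase gene, had the most, with 51 of its 63 regions H3K9me3-free over 361 kb. Erc2, a component of the presynaptic active zone, had 32 of 33, Asic2, an acid-sensing ion channel, 31 of 38, Lrmda 31 of 33, and the potassium channel Kcnh7 22 of 22. Dmd (dystrophin), Tenm1 (a teneurin) and Frmpd4 (a synaptic scaffold), which had 38 of 39, 29 of 29 and 28 of 28, lie on the X.

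Gene families split by H3K9me3. Counting each overlap of a gene with a region, 47.2% of the 14354 pairs of a protein-coding gene and an H3K9me2 region were H3K9me3-free. Well above this lay voltage-gated calcium channel subunits (Cacn, 78.3% of 69 pairs), solute carriers (Slc, 73.6% of 231), collagens (Col, 73.5% of 83), metalloproteases of the Adam and Adamts genes (72.0% of 125), receptor tyrosine phosphatases (Ptpr, 65.0% of 157), cytochromes P450 (Cyp, 63.9% of 83) and potassium channels (Kcn, 59.8% of 209). Well below it lay protocadherins (Pcdh, 7.91% of 253), cadherins (Cdh, 15.3% of 183), vomeronasal receptors (16.3% of 295), olfactory receptors (Olfr, 16.9% of 883), GABA receptor subunits (Gabr, 21.6% of 88), glutamate receptors (24.5% of 237) and zinc finger genes (Zfp, 27.1% of 133). Genes of a cluster share regions, as in the protocadherins, so these pairs are not independent and no test was made. By gene, 54.2% of all protein-coding genes with any H3K9me2 region had a H3K9me3-free one. The high families stayed above that share, calcium channel subunits with 8 of 9 genes. Of the low families, glutamate receptors lay above it (11 of 16 genes, 68.8%) and cadherins near it (8 of 16, 50.0%). The rest of the low families had 12.5% to 41.1%. The 39 Hox genes and the 76 ribosomal protein genes overlapped no H3K9me2 region of either kind.

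**Figure D3:**
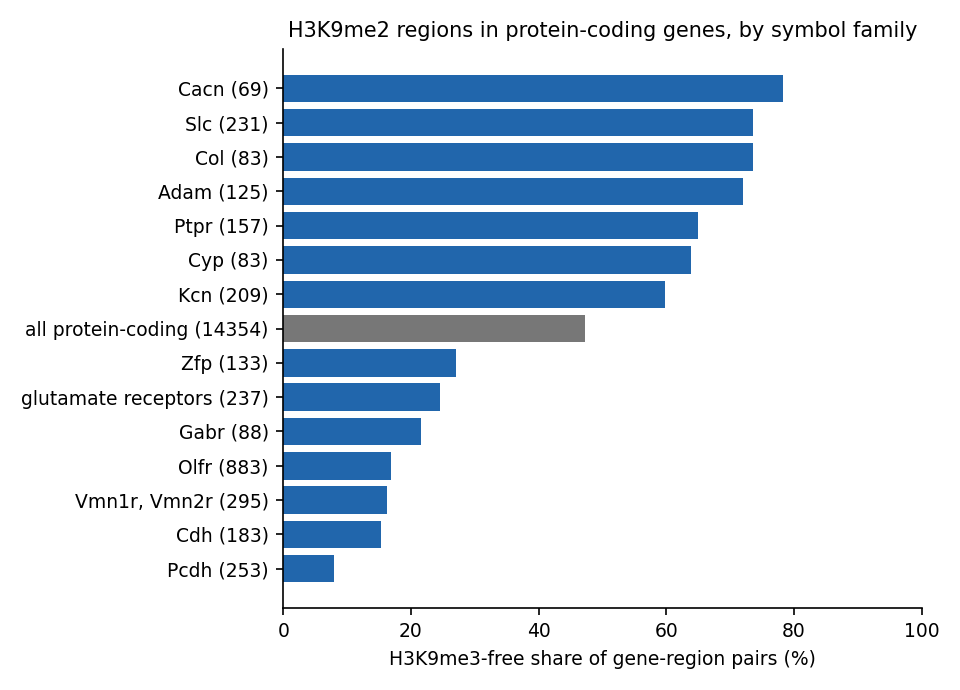
Share (%) of pairs of a protein-coding gene and an overlapping H3K9me2 region in which the region is H3K9me3-free, for families defined by gene symbol with at least 50 pairs (number of pairs in brackets); grey is all protein-coding genes. Calcium channel, solute carrier and collagen genes lie above 70%, and protocadherin, cadherin, vomeronasal and olfactory receptor genes below 20%.

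Most genes on the lists for crypt cell types overlapped no H3K9me2 region, as was so for most protein-coding genes, of which 4382 of 21910 overlapped any and 10.8% a H3K9me3-free one. None of 16 enterocyte, 9 goblet, 12 Paneth, 15 enteroendocrine, 14 proliferation or 15 housekeeping genes overlapped any. ChIP-seq does not measure expression, so the lists serve as positions only and the tissue label was not tested by them. Among 17 stem cell and crypt base genes, Lgr5, the receptor that marks crypt base stem cells, held a single H3K9me3-free region of 750 bp (chr10:115526101-115526850) with 235 reads over the 6 ChIP libraries, and Tnfrsf19 held 2. The log2 fold change KO against WT was 0.030 in the Lgr5 region and -0.0011 in the larger Tnfrsf19 region. Of 9 tuft cell genes, Dclk1 had 5 H3K9me3-free regions among 7, Alox5 had 1, and the region at Rgs13 had an H3K9me3 peak.

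Lists for other cell types and for regulators held a few such genes each, and no list was tested against the share over all genes. Of 16 immune genes, Ptprc (CD45), Cd28, Ms4a1 (CD20) and Il2ra had H3K9me3-free regions, and the largest, over Ptprc, had 31200 bp, 6922 reads and a log2 fold change of 0.040. Of 12 mesenchymal genes, Postn overlapped a region of 49050 bp and Col1a2 overlapped 2 smaller ones, while the regions at Col3a1 and Dcn had H3K9me3 peaks. Of 30 developmental transcription factors, Pax1, Pax3, Tbx20 and Runx2 had H3K9me3-free regions, 6 of 8 in Runx2. Of 26 genes for the machinery of H3K9 methylation, the demethylase gene Kdm4c alone had any, all 3 of them H3K9me3-free. Log2 fold changes at the largest region of the immune, mesenchymal and transcription factor genes named here lay between -0.13 and 0.040, and none passed the edgeR test.

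Neuronal adhesion and synapse genes, most of them very long, all had H3K9me2 regions. Of the 34, 23 had at least 1 H3K9me3-free region, and 208 of the 1144 overlaps were H3K9me3-free. Over all protein-coding genes of 200 kb or more, 65.4% had such a region and 46.3% of overlaps were H3K9me3-free. The genes differed widely. Ptprd had 27 of 60, Dlg2 22 of 48, Kcnip4 14 of 25 and Kcnd2 7 of 11. Lrp1b had 1 of 75, Lrrc4c 1 of 47 and Nlgn1 1 of 32, and 11 genes, Csmd1, Nrg1, Grm7 and Cdh18 among them, had none. H3K9me3-free regions made up every region in Il1rapl1 (11) and Il1rapl2 (14), which lie on the X.

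Few genes named by the study for changed expression or H3K9me3 met these regions, as few protein-coding genes did: 10.8% of all, and 3.84% of those under 10 kb, overlapped a H3K9me3-free region. Of 17 genes it described as upregulated in KO, Tlr4 alone overlapped H3K9me2 regions, 2 of them, and both had H3K9me3 peaks. Of 5 genes it described as gaining H3K9me3, Tcf4 had 1 H3K9me3-free region of 2700 bp (log2 fold change 0.27, edgeR adjusted p = 1.00), although 18 H3K9me3 peaks lie elsewhere in the gene. The genes gaining H3K9me3 were chosen by the study on the H3K9me3 libraries of this study, and the upregulated ones on RNA-seq, which was not analysed here.

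GC content was higher and repeat content lower than in the other regions in each of the 5 size classes. Median GC content was 41.7% against 38.7%. Soft-masked bases, which are repeats, made up 29.2% at the median against 37.4%. Among autosomal regions of 1 peak the values were 42.4% against 40.2% for GC and 26.3% against 37.8% for repeats. CpG observed over expected was low in both, 0.136 and 0.133, and among autosomal regions of 1 peak 0.135 and 0.131. The H3K9me3-free X regions departed from this, with 44.0% GC, 55.0% repeats and a CpG ratio of 0.077. The X regions with an H3K9me3 peak departed likewise, with 46.0%, 69.1% and 0.10.

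The depth of H3K9me2 over input differed little between the 2 kinds of region. Log2 ChIP over input was computed on reads per total in H3K9me2 regions, so 0 is the average of the regions and not of the genome, and enrichment over the rest of the genome could not be computed. The median H3K9me3-free region had 0.077, 0.011 and 0.018 in WT1 to WT3 and 0.0093, 0.029 and 0.075 in KO1 to KO3. The mean was 0.035 ± 0.036 (SD, n = 3) in WT and 0.038 ± 0.033 (SD, n = 3) in KO, and the genotypes overlapped. Regions with an H3K9me3 peak had -0.011 ± 0.018 in WT and -0.0050 ± 0.0051 in KO. WT1, WT2, WT3, KO1, KO2 and KO3 all had the higher median in H3K9me3-free regions, but on the autosomes alone the H3K9me3-free medians were 0.016 ± 0.033 in WT and 0.013 ± 0.031 in KO, within 1 SD of 0.

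X regions were the high end of the scale. Their median log2 ChIP over input was 0.69, 0.63 and 0.62 in WT1 to WT3 and 0.75, 0.70 and 1.11 in KO1 to KO3, all above every autosomal median. KO3 was the highest of the 6. The 47 X regions with an H3K9me3 peak were also high, at 0.41 ± 0.077 (SD, n = 3) in WT and 0.53 ± 0.30 (SD, n = 3) in KO. Of the 512 H3K9me3-free regions above 1 on this scale, 460 lay on the X. Of the H3K9me3-free X regions, 1682 (98.4%) had under 50 reads in the sum of the 2 inputs. Since 1 read was also added to every count, single X values are weak. Peaks had been called on these same ChIP libraries and inputs, and how far the calling sets these ratios was not tested.

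**Figure D4:**
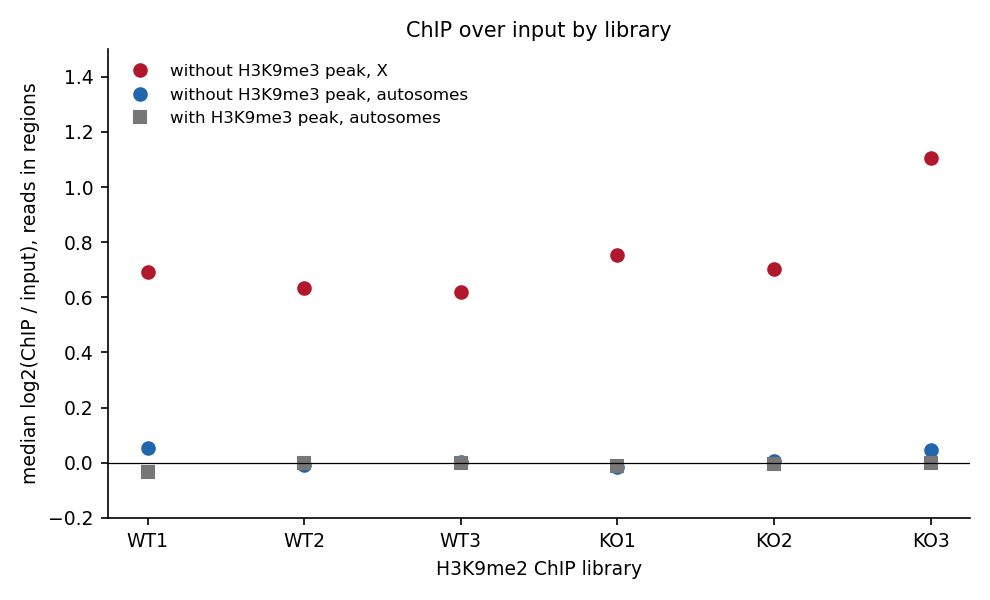
Median log2 ChIP over input (y axis, reads per total in H3K9me2 regions, 0 is the average region) in each of the 6 H3K9me2 libraries (x axis), for H3K9me3-free regions on the X (red) and autosomes (blue) and for autosomal regions with an H3K9me3 peak (grey squares). The X medians lie between 0.62 and 1.11 and KO3 is highest, while the autosomal medians lie between -0.032 and 0.055.

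Among H3K9me3-free regions with a named gene and at least 50 input reads, the highest ChIP over input was in Aff2, an X-linked gene for a nuclear factor of transcription elongation and splicing. It had 0.66, 0.61 and 0.61 in WT and 1.21, 0.95 and 1.71 in KO, and the KO input held 28 reads against 42 in the WT input. In CPM, without input, the same region had 5.79, 5.57 and 5.55 in WT and 5.43, 4.49 and 7.53 in KO, so the genotypes overlapped on that scale. Rtl4, a retrotransposon-derived gene on the X, came next with a mean of 0.85 over the 6 libraries. Regions near Mrgpra2a, a receptor of sensory neurons, and in Zmat4, Ptprn2, a phosphatase-like protein of secretory vesicles, Col4a6, a collagen gene on the X, Tmc1, a channel of inner ear hair cells, and Il1rl1, the receptor for interleukin 33, had 0.64 to 0.77. Repeats made up 91.3% of the Il1rl1 region and 81.5% of the Ptprn2 region. The lowest values were in Mettl15, a methyltransferase of mitochondrial rRNA, with -0.51, and near Cbln2, a synaptic organizer, with -0.50.

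No single H3K9me3-free region passed the edgeR test of KO against WT with genotype as the single term. At an adjusted p under 0.05 (edgeR quasi-likelihood F test, Benjamini-Hochberg over all 47065 regions) 0 were lower and 0 higher, against 0.00212% lower and 0% higher of all regions, where the only call was a region on chromosome 18 that meets an H3K9me3 peak. At an unadjusted edgeR p under 0.05, 418 (2.06%) were lower and 351 (1.73%) higher, against 1.52% and 1.6% of all regions. On the autosomes 416 (2.24%) were lower and 225 (1.21%) higher, against 1.58% and 1.36% of all autosomal regions, and the other 126 higher ones lay on the X. Among the 14446 H3K9me3-free regions with at least 50 input reads, 352 (2.44%) were lower and 152 (1.05%) higher. DESeq2 called 1 lower and 0 higher at its adjusted p, and 191 and 147 at its unadjusted p. Background shares over all regions were not counted for this filter or for DESeq2. With the replicate number as a block in edgeR some regions passed the adjusted threshold, as given in the closing section. The 3 KO values lay below all 3 WT values in 943 regions (4.65%, against 3.92% of all) and above them in 774 (3.82%, against 4.15%). On the autosomes these shares were 5.00% (4.04% of all autosomal regions) and 3.23% (3.92%). Over all sizes most of these shares lie near the background, and the autosomal share lower was above it by less than 1 percentage point. In the size classes from 1 peak upward, the autosomal share lower was 1.95%, 2.28%, 2.84%, 3.63% and 3.45%. Of all autosomal regions it was 1.66%, 1.79%, 1.66%, 1.26% and 0.944%. The classes of 6 to 10 and of 11 or more peaks held 27 and 4 lower and 4 and 2 higher regions. The isolates hold several cell types, and in such bulk chromatin a change in the mark and a change in the mix of cells cannot be told apart.

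The median log2 fold change was -0.0072 over the H3K9me3-free regions and -0.0015 over all. Of the H3K9me3-free regions, 90% lay between -0.28 and 0.37. Fold changes were scaled on reads in H3K9me2 regions, so a shift of the mark shared by all regions would not show. By Western blot the study saw some drop of H3K9me2 in small intestinal crypts of KO mice, which was not tested here. The median region deviated from its mean over the libraries by 0.041, -0.016 and -0.012 in WT1 to WT3 and by -0.016, -0.0089 and 0.027 in KO1 to KO3. WT1 and KO3 were the high libraries, the genotypes overlapped, and the SD within a genotype, 0.028, was larger than the median change. By size, the autosomal medians were -0.011 with 1 peak, -0.019 with 2, -0.021 with 3 to 5, -0.028 with 6 to 10 and -0.037 with 11 or more peaks, and those of autosomal regions with an H3K9me3 peak were between 0.011 and -0.0073. In H3K9me3-free autosomal regions of 11 or more peaks, median log2 ChIP over input was 0.091, -0.0055 and 0.013 in WT1 to WT3 and 0.039, 0.032 and -0.010 in KO1 to KO3, so the genotypes overlapped and WT1 was the highest library. Without WT1 the numbers past the unadjusted p turned to 436 lower and 685 higher, without KO1 to 494 and 620, and without KO2 to 373 and 399. Without KO3 they were 403 and 167. Scaled on the H3K9me3-free regions alone they were 369 and 447. With X included, which direction held more regions thus depended on the libraries and on the scaling. Of the higher ones, 165 without WT1, 213 without KO1, 180 without KO2 and 171 with that scaling lay on the X.

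The H3K9me3-free region with the smallest p lay in an intron of St6gal2, a sialyltransferase, which adds sialic acid to sugar chains (chr17:55456051-55465050, 9000 bp, 3 peaks). It had 17.5, 15.3 and 15.9 CPM (TMM-scaled) in WT and 12.4, 10.4 and 10.9 in KO, so all KO values lay below the WT values, while the input held 154 reads in WT and 181 in KO. The log2 fold change was -0.53 (SE 0.093, edgeR adjusted p = 0.18). DESeq2 called it at -0.53. Inside it, the peak at chr17:55459801-55465050 held 320, 227 and 204 reads in WT, 303, 133 and 262 in KO and 98 and 121 in the WT and KO inputs, in a deposited table whose peaks had been selected on the same contrast. The nearest H3K9me3 peak was 16950 bp away.

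The 7 further regions named for the smallest p among those lower in KO had adjusted p from 0.80 to 1.00 and are given as values. They were picked because their KO and WT values do not overlap, so that separation is no finding. A region of 30600 bp over Cd209b and Cd209c, C-type lectin receptors of macrophages and dendritic cells, had 46.9, 43.8 and 40.6 CPM in WT and 35.8, 36.8 and 34.4 in KO (log2 fold change -0.30, SE 0.063). A region in Kcnq5, a potassium channel, had 7.35, 8.75 and 7.05 in WT and 5.05, 4.599 and 6.15 in KO. Further ones lay in Hpse2, a heparanase relative, Lyzl1, a lysozyme-like gene, Ntrk2, the receptor for brain-derived neurotrophic factor, and Rims2, a presynaptic scaffold, and near Trav4-3, a T cell receptor segment, with log2 fold changes from -0.59 to -0.22. The 3 widest of the 8, at Cd209b, Rims2 and Lyzl1, had the smallest decreases, and the choice by p favours larger changes in smaller regions. In Ntrk2 the input held 70 reads in WT and 57 in KO (log2 -0.37). Over input its WT values were 0.019, 0.038 and 0.19 and its KO values 0.13, -0.21 and -0.018, so the genotypes overlapped.

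The 8 regions named for the smallest p among those higher in KO had edgeR adjusted p of 1.00. In 5 of them KO3 was the highest library. The first was a region of 600 bp in an intron of St8sia6, a sialyltransferase, with 0.763, 0.575 and 0.900 CPM in WT and 1.24, 1.22 and 2.09 in KO (log2 fold change 1.06, SE 0.30). It rested on 13 to 83 reads per library, and the input held 5 reads in WT and 17 in KO. Over input the order of the genotypes was not kept, with 0.63, 0.27 and 0.89 in WT and -0.21, -0.20 and 0.56 in KO.

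Among these 8 regions, the most reads were in that of Cyyr1 (100950 bp, 16 peaks), a gene for a membrane protein, which had 109, 121 and 117 CPM in WT and 132, 131 and 126 in KO (log2 fold change 0.17, SE 0.048). Its inputs differed by -0.0067 on the log2 scale. A region of 20400 bp at Lce3a, a gene of the cornified layer of skin, had 23.2, 22.2 and 23.8 in WT and 28.2, 24.6 and 28.04 in KO. Other regions, at or near Vldlr, a lipoprotein receptor, Eda, a ligand of skin appendage development on the X, Olfr1367 and 2 clone-named genes, had 15 to 183 reads per library and log2 fold changes from 0.52 to 0.96. For Olfr1367, at 0.52, the input differed by 0.51 (37 reads in WT, 56 in KO), and over input the genotypes overlapped.

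**Figure D5:**
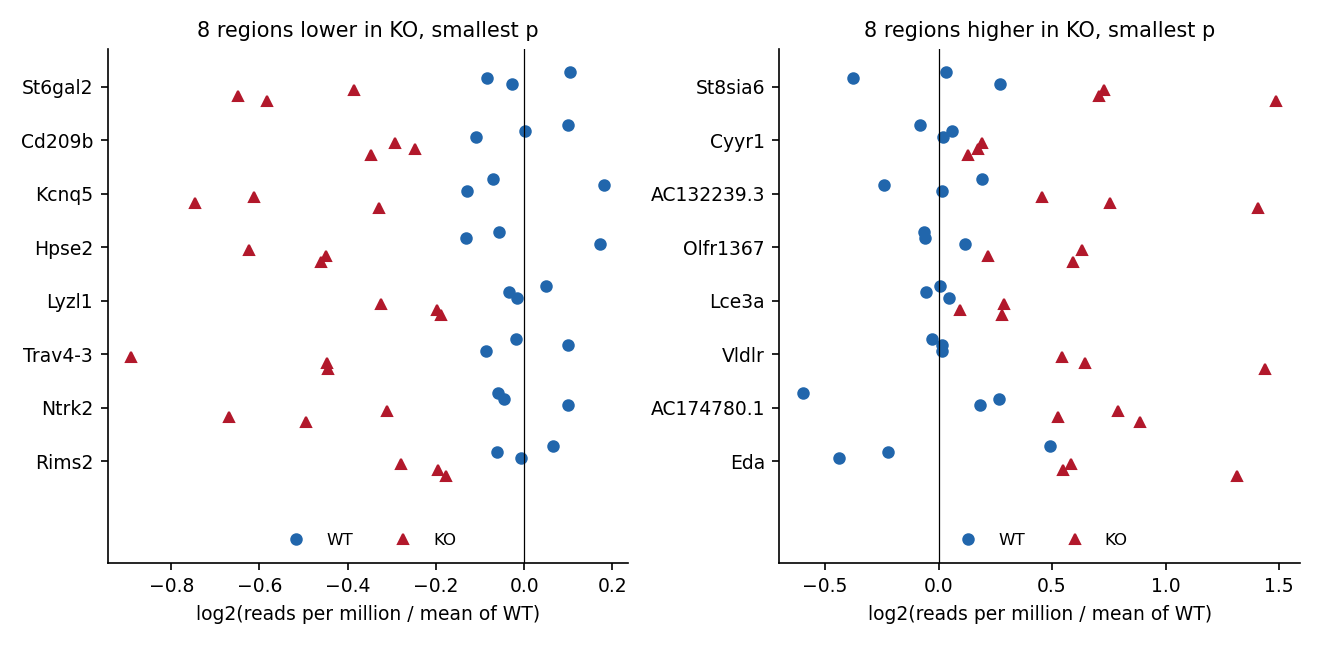
CPM of each library relative to the WT mean (x axis, log2) for the 8 H3K9me3-free regions with the smallest p among those lower (left) and higher (right) in KO whose groups do not overlap, 1 row per region named by its gene; blue circles are WT1 to WT3 and red triangles KO1 to KO3. Separation of the groups was part of the choice; the plot shows the size, with St6gal2 at -0.53 and Cyyr1 at 0.17, and the wider spread of the small regions on the right.

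The largest H3K9me3-free regions, which hold the most reads, differed little between genotypes, with log2 fold changes from -0.12 to -0.0031 in the 8 with most peaks. The 41-peak region on chromosome 14 had 349, 334 and 336 CPM in WT and 341, 331 and 322 in KO (log2 fold change -0.035, SE 0.041). Gria1 had 220, 179 and 182 in WT and 199, 187 and 162 in KO (-0.084, SE 0.069), and WT1 was the high library. Alk, with the same high library, had 144, 116 and 113 in WT and 123, 122 and 102 in KO. Dlg2 had -0.0031 (SE 0.047) and Armc4 -0.018 (SE 0.045). The largest change of the 8 was at Gm10036, which had 117, 126 and 128 in WT and 116, 118 and 108 in KO (-0.12, SE 0.049, edgeR unadjusted p = 0.028, adjusted p = 1.00). The groups overlapped in Gria1, Alk, Dlg2, Armc4, Gm10036 and the chromosome 14 region.

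On the X the median H3K9me3-free region was higher in KO by 0.24 on the log2 scale, with 126 of 1709 (7.37%) higher and 2 (0.117%) lower at an unadjusted edgeR p under 0.05, against 1.6% and 1.52% of all regions, and none at an adjusted p. A single library carried most of this. X regions took 0.206%, 0.195% and 0.192% of the reads in WT1 to WT3, 0.212%, 0.202% and 0.270% in KO1 to KO3, and 0.123% and 0.121% in the WT and KO inputs. KO1 and KO2 lay near WT1 and KO3 lay apart. Without KO3 the median was 0.083 and 40 regions were higher. The 47 X regions with an H3K9me3 peak had a median of 0.23 with all libraries. Of them 9 (19.1%) were higher and 0 lower at the unadjusted edgeR p. The higher values in KO were therefore not particular to the H3K9me3-free regions of the X. The largest X region by reads in Dmd, 10650 bp wide, had a log2 fold change of 0.39 (edgeR unadjusted p = 0.053).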

How the data were processed

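ChIP-seq for H3K9me2 and H3K9me3 of small intestinal crypts was analysed from the tables deposited by the authors. Per the study's methods and the submitters' processing notes, paired-end reads were trimmed (Trim Galore 0.4.4), mapped to GRCm38 (Bowtie2 2.3.2), kept above a mapping quality limit and freed of duplicates. MACS peaks were called once per mark in SeqMonk, on the ChIP libraries of both genotypes jointly. A peak is therefore no evidence for a single library. How 179733 H3K9me2 peaks were grouped into regions is not given in the sources used here.

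For each H3K9me2 region the deposited signal is a mean of reads over its peaks. Multiplied by the deposited count of peaks it lay at most 0.00114 from a whole number, and these sums of reads were used. The 8 standard deviation columns were not used. Of the H3K9me3 table, whose deposited values are on a log2 scale, coordinates alone were used. A shorter deposited table gave read counts for 3 H3K9me2 peaks selected by the authors' edgeR test. Its adjusted p-values and the shorter H3K9me3 table were not used.

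KO was compared with WT over all 47065 regions by the edgeR 4.0.16 quasi-likelihood F test (TMM, two-sided, genotype as the single term, Benjamini-Hochberg, threshold 0.05). The low-count filter removed 0 regions. The fit was tested on simulated data. DESeq2 1.42.0 was an alternative. CPM values are TMM-scaled reads relative to all reads in regions. Log2 ChIP over input used 1 added read and the input of the same genotype. Genes came from GENCODE M21, which holds 11039 of the 12516 symbols in the region table, bases and soft-masking from RefSeq GRCm38. GC, genes and families are descriptions without test, since regions are not replicates. Named regions were those past the threshold (none), the 8 lower and 8 higher with the smallest p among regions with a gene symbol and non-overlapping groups, the 8 with most peaks, the 8 highest and 4 lowest in ChIP over input with at least 50 input reads, and up to 4 genes per list by reads. Other list genes were named after their values were seen. The regions, lists and rules were chosen with earlier results of these data known. Replicate numbers did not pair the libraries: the correlation within a number was 0.203, 0.0080 and 0.097. P-values measure the spread between libraries, which may be partly technical. A gene and a sequence are not reported here.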

Additional observations from a re-analysis of the deposited data

How the results depend on the processing

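Of 464 values for 36 named regions, 460 stayed on the same side of the adjusted threshold, no call reversed, and 4 passed it: St6gal2 under DESeq2 (-0.53) and, with the replicate number as a block, St6gal2 (-0.53), Kcnq5 (-0.53) and Cd209b (-0.30). Values that passed no threshold could change sign, as at Gria1 (0.021) and Alk (0.010) without WT1. With the block 7 regions were lower and 0 higher at the adjusted p, and 640 lower and 438 higher at the unadjusted p. Shares over all regions were not counted for the block or for the other alternatives. With DESeq2 1 was lower at the adjusted p, and 191 lower and 147 higher (61 higher on the X) at the unadjusted p. Leaving out each library in turn gave 373 to 513 lower and 167 to 685 higher regions, and on the X 40 to 213 higher with a median log2 fold change of 0.083 to 0.30. The alternatives for the X, and leaving X and Y out of the fit (401 lower, 244 higher), were chosen after seeing the data. Scaled on the H3K9me3-free regions alone, 369 were lower and 447 higher, 171 of the latter on the X. The median log2 fold change of these regions lay between -0.025 and 0.017 over all alternatives, on both sides of 0 and within the SD between libraries.

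Asking for no H3K9me3 peak within 5 kb left 16912 regions (35.9%), with gene overlap 47.0%, GC 41.8% and 28.6% repeats. Allowing H3K9me3 peaks on up to 10% of the width gave 23528 regions (50.0%), with median width 3450 bp, gene overlap 47.3%, GC 41.3%, CpG ratio 0.137 and 30.3% repeats. With at least 50 input reads, median log2 ChIP over input was 0.020, -0.030 and -0.020 in WT1 to WT3 and -0.045, -0.023 and 0.0097 in KO1 to KO3, on both sides of 0. From regions of 1 peak to those of 11 or more, X included, H3K9me3-free regions differed from the others in gene overlap by 12.9, 12.5, 9.23, 11.7 and 4.80 percentage points, in GC by 2.43, 2.04, 2.11, 2.09 and 1.66, in repeats by -10.1, -7.39, -6.51, -8.30 and -6.35, in width by -600, -1200, -2700, -4500 and -12900 bp, and in log2 ChIP over input by 0.047, 0.043, 0.033, 0.029 and 0.033. On autosomes alone the ChIP over input difference was smaller at 1 peak (medians 0.016 and -0.0028), and gene overlap differed more (45.3% and 30.5%). Low reads per region limit the test of single H3K9me3-free regions, most of all on the X.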
